A study of Mus musculus with 16 samples.

Results

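The cadherins and protocadherins are 90 of the 24091 genes in the count tables, taken as every symbol of the form Cdh or Pcdh followed by a number or a cluster name, with Cdh1 and Cdh5 left out. By structure they comprise 4 classical type I cadherins, 12 classical type II cadherins, 5 atypical cadherins, 12 protocadherins outside the clusters, and the protocadherin clusters Pcdha with 14, Pcdhb with 21 and Pcdhg with 22 genes. The libraries hold poly(A) RNA of Pdx1:Cre;Tff2fl/fl mice (here KO), whose floxed Tff2 gene for a secreted trefoil peptide is recombined where the Pdx1 promoter drives Cre, in the early pancreatic epithelium. Controls were Tff2fl/fl animals that carry the same floxed alleles without Cre, so effects of the Cre transgene and of Tff2 loss cannot be told apart. Whole pancreata with dorsal and ventral lobes came from embryos at E16.5, 3 KO (animals 01, 18 and 19) and 3 control (02, 08 and 13), and hand-picked islets came from male mice aged 60 weeks, 5 KO (055, 122, 803, 812 and 845) and 5 control (052, 826, 829, 857 and 858).

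Cadherins are calcium-dependent adhesion proteins whose extracellular repeats bind the same or related cadherins on the neighbouring cell. The cytoplasmic tails of classical cadherins bind beta- and p120-catenin, and through alpha-catenin the actin cytoskeleton, whereas protocadherins lack the catenin-binding tail. In neurons each cell uses its own combination of clustered Pcdha, Pcdhb and Pcdhg isoforms, chosen by alternative promoters, as a label for self-recognition. E-cadherin (Cdh1) holds the pancreatic epithelium together and N-cadherin (Cdh2) is found on islet endocrine cells and on mesenchyme.

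Total counts were 14866194 to 22699934 per pancreas and 22595400 to 32385042 per islet library, and the members together took 0.114 to 0.120% of counts in KO pancreata, 0.0926 to 0.0995% in control pancreata, 0.0845 to 0.0937% in KO islets and 0.0861 to 0.0956% in control islets. Levels are given as CPM, read counts scaled to the TMM-adjusted library size, or per kilobase of gene as RPKM. Tff2 was at 2.38, 8.82 and 1.42 CPM in KO pancreata against 34.6, 20.4 and 31.4 CPM in control pancreata (log2 fold change -2.80, SE 0.535, edgeR adjusted p = 0.0297), and at 0 to 0.513 CPM in KO islets against 1.05 to 5.05 CPM in control islets (-3.07, SE 0.594, edgeR adjusted p = 0.0884). The 10 islet endocrine markers summed to 168715 to 194484 CPM in KO islets and 172767 to 207573 CPM in control islets, and the 9 acinar markers to 28252 to 56643 CPM in KO pancreata and 60649 to 74009 CPM in control pancreata, so both preparations carried the transcripts of their labels. Among the pancreata, KO 18 had 4102 reads of 4 Y-linked genes and the other 5 libraries had 0 to 6, while all islet libraries had 5992 to 9153 (KO) or 5988 to 7899 (control). The labels do not say whether embryos shared a litter.

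The members with the highest levels in islets were mostly not those of the fetal pancreas. Per length, N-cadherin Cdh2 stood first in control islets at 47.0 ± 0.552 RPKM (SD, n = 5), followed by the type II cadherin Cdh8 at 23.0 ± 0.645 RPKM and the protocadherin Pcdh1 at 15.1 ± 0.823 RPKM. In control pancreata the order began with Cdh11 (OB-cadherin, a type II cadherin of mesenchyme) at 24.0 ± 2.22 RPKM (SD, n = 3), Pcdh18 at 18.2 ± 1.27 RPKM and Pcdh1 at 12.4 ± 0.622 RPKM. Places 4 to 8 in control islets were taken by Pcdhgc3 (7.61 ± 0.411 RPKM), Pcdhga5 (7.35 ± 0.429 RPKM), Cdh22 (6.68 ± 0.892 RPKM), Pcdh15 (5.16 ± 0.838 RPKM) and R-cadherin Cdh4 (3.48 ± 0.134 RPKM), of which Pcdhgc3, Pcdhga5 and Cdh22 lay within 1 SD of a neighbour in that order. In control pancreata the same places went to Pcdhgc3 (12.2 ± 0.924 RPKM), P-cadherin Cdh3 (12.0 ± 1.12 RPKM), Cdh2 (6.23 ± 0.361 RPKM), Cdh6 (6.11 ± 0.539 RPKM) and the endothelial protocadherin Pcdh12 (5.25 ± 0.770 RPKM), with Pcdh1, Pcdhgc3 and Cdh3 within 1 SD of each other, and likewise Cdh2 and Cdh6. Place 8 was close to place 9, with Pcdhb14 (3.45 RPKM) after Cdh4 in control islets and Pcdh9 (4.84 RPKM) after Pcdh12 in control pancreata. Both of these gaps were within 1 SD. All places rest on the deposited gene lengths. For Pcdh1 that length is 3.899 kb, where the GENCODE M21 annotation holds 8.797 kb of exon. Others with more annotated exon include Cdh2 (4.827 against 8.066 kb), Cdh8 (5.736 against 7.74 kb) and Pcdhb14 (3.437 against 8.695 kb). Over the annotated exon the levels per length of these genes would be lower. For comparison, E-cadherin Cdh1 was at 121 ± 3.31 RPKM in control islets.

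**Figure D1:**
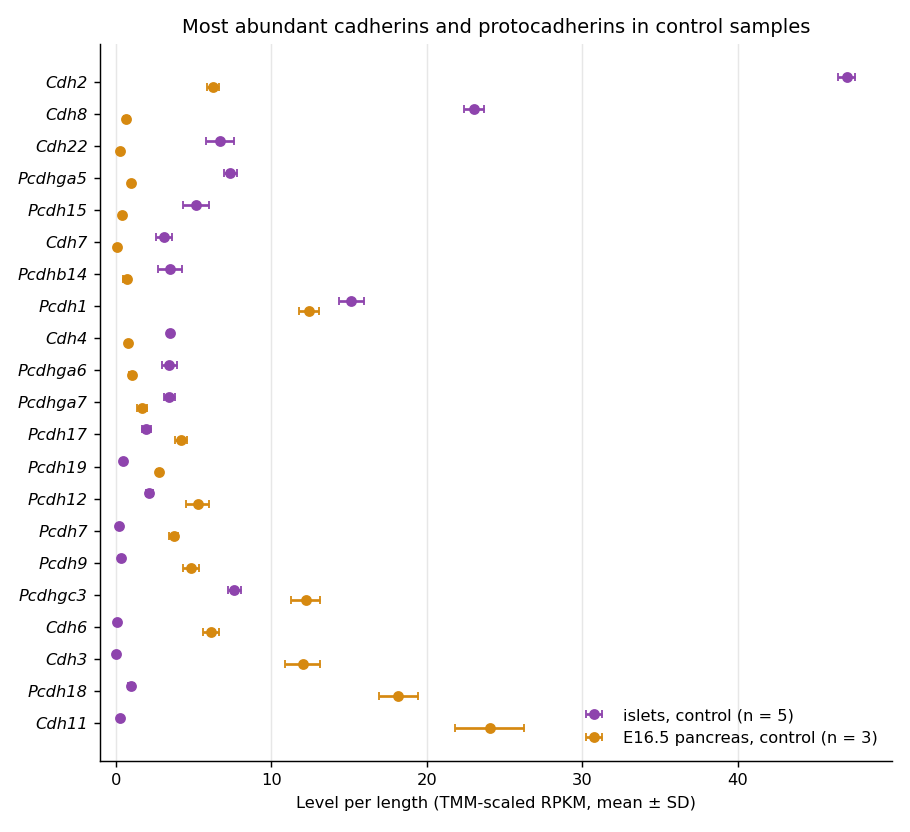
Level per length (TMM-scaled RPKM, x axis, mean ± SD) of the members ranked among the 12 highest in control islets (n = 5) or in control E16.5 pancreas (n = 3), ordered by the difference between them. Cdh2 at 47.0 and Cdh8 at 23.0 RPKM lie far to the right in islets, Cdh11 at 24.0 and Pcdh18 at 18.2 RPKM in pancreas. Over the deposited lengths, Pcdh1 and Pcdhgc3 are among the first 4 in both.

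Between control islets and control pancreata, 45 of 86 tested members were higher in islets (42.4% of all genes tested were) and 28 were lower (43.6% of all genes), by the edgeR quasi-likelihood F test at an adjusted p under 0.05. The shares of members were thus 52.3% higher and 32.6% lower, and in either direction 84.9%, where 85.9% of all genes were called. Tissue, age, sex and preparation cannot be told apart in this contrast. Cdh8, a cadherin best known from the brain, was at 127, 131, 132, 133 and 137 CPM in control islets against 2.90, 4.57 and 4.11 CPM in control pancreata (log2 difference 5.11, SE 0.122, edgeR adjusted p = 4.36e-16). Cdh2 was at 224 to 231 CPM in control islets against 29.0 to 32.1 CPM in control pancreata (2.91, SE 0.115, edgeR adjusted p = 2.14e-13). No islet library came near a pancreas library for either gene. Cdh7, a further neural type II cadherin, was at 13.0 to 19.9 CPM in control islets against 0.309 to 0.452 CPM in control pancreata (5.39, SE 0.222). Cdh22 (log2 difference 4.81) and Cdh4 (2.18) were also higher in islets, as was Pcdh15 (3.67), which forms the tip link of inner-ear hair cells together with Cdh23.

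The largest differences in the other direction were those of Cdh3, Cdh16, Cdh11, Cdh6, Cdh17 and Pcdh11x. P-cadherin Cdh3, an epithelial cadherin, was at 0.0349 to 0.333 CPM in control islets, 1 to 7 reads per library, against 45.4, 46.0 and 53.4 CPM in control pancreata (log2 difference -8.64, SE 0.220, edgeR adjusted p = 8.41e-16). Cdh11 was at 1.36 to 2.66 CPM in control islets against 186 to 219 CPM in control pancreata (-6.58, SE 0.176), Cdh6 at 0.409 to 1.31 CPM against 49.6 to 58.8 CPM (-6.05, SE 0.215), Cdh17 (LI-cadherin of liver and intestine) at 0 to 0.143 CPM against 0.804 to 3.34 CPM (-5.35, SE 0.599) and the X-linked Pcdh11x at 0 to 0.213 CPM against 3.02 to 4.01 CPM (-5.15, SE 0.432). Cdh16, the kidney-specific cadherin, had 1 read in the 5 control islet libraries and 160 reads in the 3 control pancreata, which is 305-fold lower in islets with an exact 95% counting interval of 54.0 to 12136. The 9 mesenchyme markers summed to 195 to 243 CPM in control islets and 13766 to 16138 CPM in control pancreata. Acinar (384 to 1437 against 60649 to 74009 CPM), duct (63.5 to 78.3 against 1060 to 1086 CPM) and mesothelium markers (24.5 to 58.6 against 192 to 283 CPM) were lower in control islets too. Islet endocrine markers were higher (172767 to 207573 against 2210 to 2901 CPM). The part of these cell types in the differences of Cdh11, Cdh6 and Pcdh18 was not tested. In bulk tissue, fewer cells of a type and less RNA per cell cannot be told apart.

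The protocadherin clusters lie side by side on chromosome 18 in mm10, Pcdha from 36930285 to 37187660, Pcdhb from 37264998 to 37521419 and Pcdhg from 37661945 to 37841872. All 14 Pcdha genes end at 37187660 and all 22 Pcdhg genes at 37841872, since each joins its own first exon to constant exons shared by its cluster. Reads from the shared exons cannot be assigned to a gene, and because the deposited length includes those exons the RPKM of Pcdha and Pcdhg genes is understated. Counted over exon length that no other gene shares in GENCODE M21, Pcdhgc3 was at 19.6 CPM per kilobase in control islets, ranking 2, and at 31.3 CPM per kilobase in control pancreata, ranking 1. Of its exon bases 66.9% are shared, some of them with BC037039 on the opposite strand, and whether counting used strand is not stated. If strand was used, this length is too short and these levels and ranks may be too high. Pcdha4, Pcdha6 and Pcdha7 had 0 reads in all 16 libraries, but each shares its start with a predicted entry of the table (Gm37013, Gm38666 and Gm38667), so this is not a measure of their expression.

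The Pcdha cluster was the family with the widest gap between the preparations. All 11 tested Pcdha genes were higher in control islets (42.4% of all genes tested were), with a median log2 difference of 4.43 (-0.01 over all genes tested). Setting Pcdha1 to its bound could not change the median, since the bound lies above it. Within pancreas 3 of the 11 genes passed the low-count filter, on reads from the KO libraries. The others passed on islet reads only, so their direction was largely set by the filter, and the count and median carry that limit. Summed over the cluster, Pcdha reads were at 45.0 ± 2.27 CPM in control islets (SD, n = 5) against 1.93 ± 0.196 CPM in control pancreata (SD, n = 3). Pcdha1 had 321 reads in control islets and 0 in control pancreata, at least 56.1-fold higher against a floor of 3 counts over the group, Pcdha8 had 333 reads against 1 (174-fold higher, exact 95% counting interval 31.1 to 6912) and Pcdhb1 had 801 reads against 3 (140-fold higher, interval 47.7 to 680). Pcdha10 was at 8.68 to 14.5 CPM in control islets against 2 to 4 reads per library in control pancreata (log2 difference 6.27, SE 0.356) and Pcdha12 at 6.50 to 7.87 CPM against 0.151 to 0.206 CPM (5.22, SE 0.363). The 13 sympathetic neuron and chromaffin markers summed to 684 to 782 CPM in control islets and 176 to 193 CPM in control pancreata, and their part in the Pcdha difference was not tested.

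In this contrast 42.4% of all genes tested were higher in control islets and 43.6% were lower. Of the 22 Pcdhg genes, 18 were higher (81.8%) and 1 was lower. Of the 21 Pcdhb genes 6 were higher and 6 lower (28.6% each), below the share of all genes in both directions. Among the Pcdhg genes, Pcdhga5 was at 30.4 to 35.2 CPM in control islets against 4.07 to 4.78 CPM in control pancreata (log2 difference 2.91, SE 0.0805). The largest log2 difference in that cluster was 3.04. The 1 lower gene was Pcdhgc3, at 34.0 to 38.8 CPM in control islets against 52.1 to 60.1 CPM in control pancreata (-0.68, SE 0.0586). That direction turned to 0.78 when libraries were scaled to the 16 pan-epithelial markers, a scaling under which the median of all genes was 1.45, against -0.01 with TMM. Among the 12 protocadherins outside the clusters, 3 were higher in islets (Pcdh15, Pcdh8 and Pcdh1) and 9 lower, with a median of -2.50, among them Pcdh18 (-4.22), Pcdh7 (-4.03), Pcdh10 (-3.73), Pcdh19 (-2.56) and Pcdh12 (-1.29, turning to 0.16 under the pan-epithelial scaling). Pcdh1 differed by 0.29 (SE 0.0753, edgeR adjusted p = 0.00204), and by 0.05 (edgeR adjusted p = 0.555) when scaled to library totals, where the all-gene median was -0.25.

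The comparison of KO with control pancreata asks how loss of Tff2 from the Pdx1 lineage bears on the fetal organ. Of 74 members tested, 7 rose in KO pancreata and 1 fell, by the edgeR quasi-likelihood F test at an adjusted p under 0.05, where 3.75% of all genes tested rose and 2.68% fell. The 7 that rose were Pcdh7, Pcdh10, Pcdh19, Cdh12, Pcdhac2, Cdh2 and Pcdha12, and Pcdh12 fell. Fold changes were above 0 for 60 of the 74 members, with a median log2 fold change of 0.31, against 49.8% of all genes and a median of -0.0012. In 26 members all KO values lay above all control values (13.6% of all genes) and in 2 all lay below (18.2%). None of these calls was kept in a fit that left out control 02, 08 or 13, and of all genes 0, 4 and 0 passed there. At an unadjusted p under 0.05 those fits held 2606, 2923 and 3420 genes, and 60, 58 and 61 of 75 members were above 0.

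**Figure D2:**
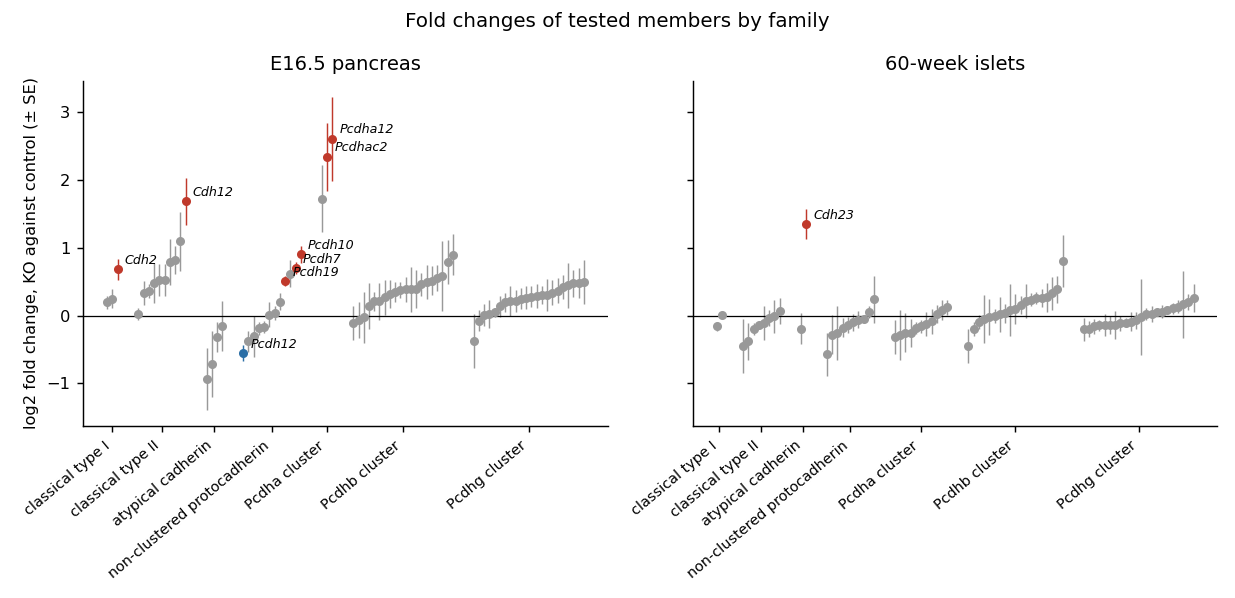
Log2 fold change (KO against control, ± SE) of each tested member, sorted within family, in E16.5 pancreas (left) and 60-week islets (right). Red points rose and the blue point fell at an adjusted p under 0.05, and grey points did not pass. In pancreas 60 of 74 members lie above 0, in islets 31 of 74.

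The 3 rises with the lowest p were those of delta-protocadherins, non-clustered protocadherins best known from the developing nervous system. Pcdh7 was at 59.4, 66.0 and 55.5 CPM in KO pancreata against 34.7, 40.7 and 37.4 CPM in controls (log2 fold change 0.70, SE 0.0863, edgeR adjusted p = 0.0176). Pcdh10 was at 9.95, 10.98 and 10.6 CPM in KO pancreata against 5.14, 5.62 and 6.33 CPM in controls (0.90, SE 0.122, edgeR adjusted p = 0.0176). In GENCODE M21, 21.1% of the exon bases of Pcdh7 are shared with 4932441J04Rik on the opposite strand, and the labels do not state whether strand was used in counting, so reads there cannot be assigned with certainty. The KO libraries of both genes stayed within a narrow range and every KO value lay well above the controls. Pcdh19, an X-linked protocadherin that binds N-cadherin, was at 41.5, 41.5 and 36.3 CPM in KO pancreata against 28.8, 27.2 and 28.7 CPM in controls (0.51, SE 0.0761, edgeR adjusted p = 0.0187). Without KO 18, the library with Y-linked reads, its fold change was 0.48 (edgeR adjusted p = 0.0352), and the call of each of these genes was also kept without KO 01 and without KO 19.

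Promoter sequences were set beside these genes because Pcdh7, Pcdh10, Pcdh19 and Cdh12 rose together in the KO pancreata, and Cdh23 rose in KO islets. The 250 bases before the annotated start are given 5′ to 3′ on the gene's strand, from the RefSeq promoter table on GRCm38.p6, which held 22 of the 90 members. Capitals mark the GC box GGGCGG on either strand.
Pcdh7 (chr5:57717831-57718080, plus strand): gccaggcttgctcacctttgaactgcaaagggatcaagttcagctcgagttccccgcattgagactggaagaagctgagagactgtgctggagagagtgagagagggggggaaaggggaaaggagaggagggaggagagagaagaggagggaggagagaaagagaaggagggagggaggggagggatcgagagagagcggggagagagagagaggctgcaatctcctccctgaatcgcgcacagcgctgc
Pcdh10 (chr3:45378148-45378397, plus strand): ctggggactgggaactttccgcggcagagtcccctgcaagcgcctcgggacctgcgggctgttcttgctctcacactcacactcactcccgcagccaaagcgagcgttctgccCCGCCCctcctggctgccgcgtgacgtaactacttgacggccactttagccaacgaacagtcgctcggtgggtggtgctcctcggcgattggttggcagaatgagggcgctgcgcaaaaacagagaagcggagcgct
Pcdh19 (chrX:133688994-133689243, minus strand): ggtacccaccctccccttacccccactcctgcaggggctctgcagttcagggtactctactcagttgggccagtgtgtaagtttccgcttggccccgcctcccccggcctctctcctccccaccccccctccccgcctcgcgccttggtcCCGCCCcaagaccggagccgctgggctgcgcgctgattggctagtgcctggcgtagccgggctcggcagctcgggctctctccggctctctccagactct
Cdh12 (chr15:21111202-21111451, plus strand): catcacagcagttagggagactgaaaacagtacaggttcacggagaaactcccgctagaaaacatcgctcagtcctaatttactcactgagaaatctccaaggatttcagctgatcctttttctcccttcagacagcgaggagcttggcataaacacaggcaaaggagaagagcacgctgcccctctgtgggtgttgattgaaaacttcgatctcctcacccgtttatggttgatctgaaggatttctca
Cdh23 (chr10:60696491-60696740, minus strand): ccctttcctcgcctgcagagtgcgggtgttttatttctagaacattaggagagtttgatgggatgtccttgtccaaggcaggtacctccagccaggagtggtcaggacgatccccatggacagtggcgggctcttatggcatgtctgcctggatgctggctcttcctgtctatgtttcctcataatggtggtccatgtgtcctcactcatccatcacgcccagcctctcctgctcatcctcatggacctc
Pcdh10 and Pcdh19 each held 1 GC box, in the reverse orientation (CCGCCC as printed), and the others held none, where 32.7% of 32817 promoters of this length hold at least 1. The motifs TATAAA (12.4% of promoters), CACCTG (17.2%) and TAATTA (4.85%) were found on neither strand of these 5 sequences. CG dinucleotides numbered 22 in Pcdh10, 16 in Pcdh19, 7 in Pcdh7, 7 in Cdh12 and 5 in Cdh23, with a median of 6 over all promoters. Of the genes that rose in KO pancreata, those shown thus ranged from CG-rich to average. These matches describe letters in the windows only.

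Among the classical type I cadherins, N-cadherin Cdh2 rose. It was at 60.9, 42.6 and 39.2 CPM in KO pancreata against 32.1, 29.2 and 29.0 CPM in controls (log2 fold change 0.68, SE 0.158, edgeR adjusted p = 0.0463). All KO values lay above all control values, and KO 01 was highest. Without KO 01 the fold change was 0.46 (edgeR adjusted p = 0.0148) and without KO 18 it was 0.75 (edgeR adjusted p = 0.0503), which no longer passed, and a robust fit also lost the call. P-cadherin Cdh3 (0.19) and R-cadherin Cdh4 (0.25) did not pass, and the muscle cadherin Cdh15 was too low to test, with 6 to 13 reads per library. The left-out E-cadherin Cdh1 was at 567, 483 and 569 CPM in KO pancreata against 689, 765 and 613 CPM in controls (-0.33, SE 0.105, edgeR adjusted p = 0.0940), which did not pass.

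All 10 tested type II cadherins had a fold change above 0, with a median of 0.52, and Cdh12 passed. Cdh12 (Br-cadherin of the brain) was at 2.61, 1.20 and 2.48 CPM in KO pancreata against 0.571, 0.753 and 0.669 CPM in controls, 20 to 56 reads against 13 to 15 (1.69, SE 0.345, edgeR adjusted p = 0.0348). KO 18 was the lowest of the KO libraries and still above every control, and without KO 19 the call was lost (1.56, edgeR adjusted p = 0.0687). Cdh8 was at 7.24, 5.46 and 7.33 CPM in KO pancreata against 2.90, 4.57 and 4.11 CPM in controls (0.82, SE 0.207, edgeR adjusted p = 0.0567), short of the threshold, although DESeq2 and limma-voom called it. Cdh11, highest in RPKM over the deposited lengths, was at 215, 273 and 266 CPM against 189, 186 and 219 CPM in controls (0.36, SE 0.105, edgeR adjusted p = 0.0774), with overlapping groups. Cdh22 was highest in KO 01, at 2.89 CPM beside 0.960 and 1.42 CPM in the other KO pancreata, against 0.603 to 1.03 CPM in controls (1.09, SE 0.433, edgeR adjusted p = 0.163).

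The 4 tested atypical cadherins, Cdh13, Cdh16, Cdh17 and Cdh23, all had fold changes below 0, with a median of -0.52, and none passed. The pan-epithelial markers moved in the same direction, 10 of 16 falling, with sums of 2080 to 2153 CPM in KO pancreata and 2611 to 2992 CPM in controls, and none at 0. Their part in the direction of the atypical cadherins was not tested. Scaled to those 16 markers, 55 of 74 members rose and none fell, where 10125 of all 14914 genes rose and 48 fell, with a median of 0.72 for members and 0.40 for all genes.

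Pcdh12, a protocadherin of endothelial cells, fell. It was at 17.9, 20.5 and 21.1 CPM in KO pancreata against 33.6, 25.01 and 29.7 CPM in controls (log2 fold change -0.56, SE 0.120, edgeR adjusted p = 0.0392). The groups did not overlap, but every fit with 1 library left out lost the call, with fold changes of -0.66 to -0.45. Cdh5, the left-out VE-cadherin of endothelium, was at 144, 178 and 162 CPM in KO pancreata against 251, 179 and 225 CPM in controls (-0.42, SE 0.129, edgeR adjusted p = 0.0900). Of 12 endothelial markers, 2 fell (Eng and Flt1) and none was at 0, with sums of 666 to 876 CPM in KO pancreata and 874 to 1126 CPM in controls, and their part in the fall of Pcdh12 was not tested. The other protocadherins outside the clusters did not pass, among them Pcdh11x (0.62), Pcdh9 (0.20), Pcdh18 (0.04), Pcdh1 (-0.17) and Pcdh17 (-0.19).

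**Figure D3:**
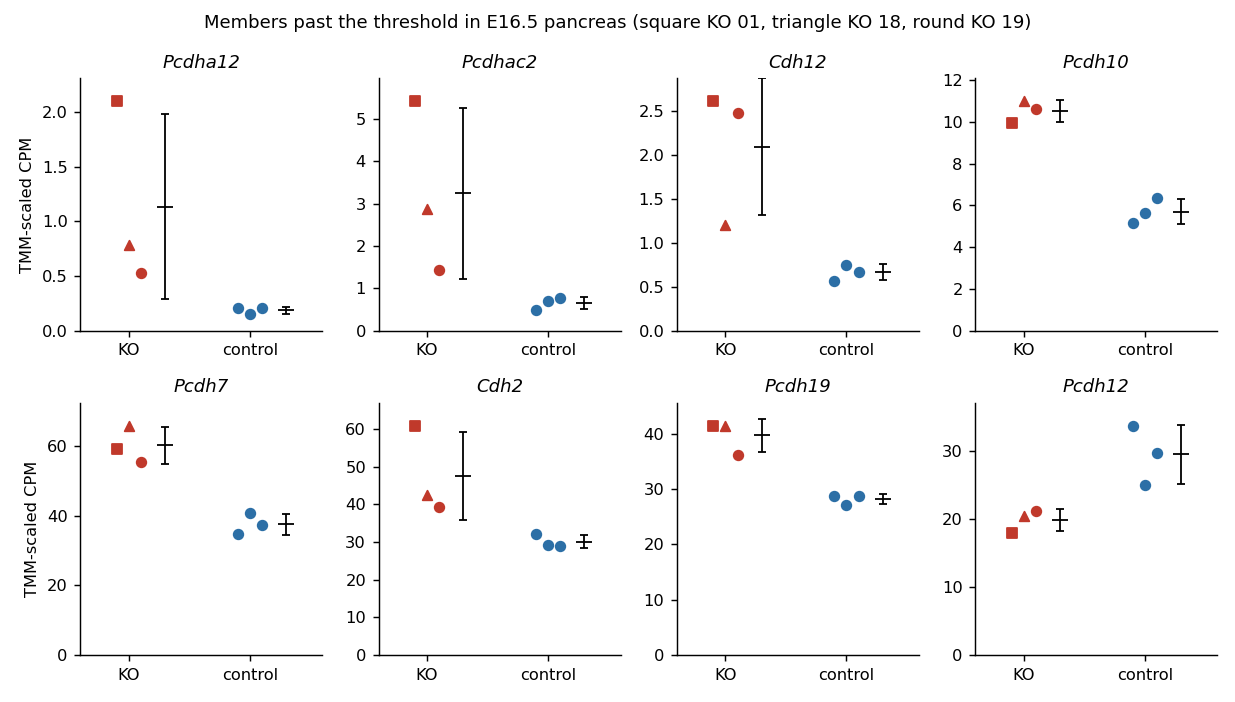
TMM-scaled CPM (y axis) of the 8 members past the threshold in E16.5 pancreas, KO (red, n = 3) left of control (blue, n = 3), with mean ± SD in black. In all 8 panels the groups do not overlap. KO 01 (square) is highest for Pcdha12, Pcdhac2, Cdh2 and Cdh12, at 2.10, 5.42, 60.9 and 2.61 CPM.

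In the Pcdha cluster, 3 of 14 genes had enough reads in pancreas to be tested, having passed the filter on reads from the KO libraries, and 2 rose. Pcdhac2, a C-type isoform known from serotonergic neurons, was at 5.42, 2.88 and 1.42 CPM in KO pancreata against 0.489, 0.703 and 0.772 CPM in controls, 116, 48 and 27 reads against 12, 14 and 15 (log2 fold change 2.34, SE 0.499, edgeR adjusted p = 0.0381). Pcdha12 was at 2.10, 0.780 and 0.527 CPM in KO pancreata against 0.204, 0.151 and 0.206 CPM in controls, 45, 13 and 10 reads against 5, 3 and 4 (2.61, SE 0.622, edgeR adjusted p = 0.0491). Both were highest in KO 01, then KO 18, then KO 19. Exons of Pcdha12 also overlap Gm10545 on the opposite strand. Without KO 01 the fold changes were 1.73 for Pcdhac2 (edgeR adjusted p = 0.0321) and 1.77 for Pcdha12 (edgeR adjusted p = 0.0580, no longer past the threshold), and without KO 18 neither passed (edgeR adjusted p = 0.0523 and 0.0534). Pcdha9 was at 1.21, 0.660 and 0.580 CPM in KO pancreata against 0.285, 0.352 and 0.103 CPM in controls and did not pass (1.73, SE 0.490, edgeR adjusted p = 0.0745). Summed over the 14 genes, the cluster had 13.3, 6.42 and 3.48 CPM in KO pancreata 01, 18 and 19 against 1.84, 1.81 and 2.16 CPM in controls.

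The sympathetic neuron and chromaffin markers stood in the same order. They summed to 950, 522 and 317 CPM in KO 01, KO 18 and KO 19 against 191, 193 and 176 CPM in controls 02, 08 and 13, and 11 of the 13 rose, among them the catecholamine enzymes Th and Dbh and the noradrenaline transporter Slc6a2, with none at 0 in a whole group. Of 7 tested Schwann and enteric glia markers 3 rose and 1 fell, with sums of 92.3 to 112 CPM in KO pancreata and 80.5 to 91.0 CPM in controls. The 7 smooth muscle markers summed to 368 to 530 CPM in KO pancreata and 259 to 316 CPM in controls, 5 rising, and of the 9 mesenchyme markers none passed. The 10 islet endocrine markers summed to 883 to 1461 CPM in KO pancreata and 2210 to 2901 CPM in controls, 7 falling. The 5 liver markers summed to 1534, 388 and 416 CPM in KO 01, KO 18 and KO 19 against 406 to 550 CPM in controls, so KO 01, the highest library for Pcdhac2, Pcdha12, Cdh2 and Cdh12, stood apart there too, and of these markers Ttr fell and none rose. The 6 mesothelium markers summed to 257 to 398 CPM in KO pancreata and 192 to 283 CPM in controls, with Upk1b rising, and the 7 leukocyte markers to 153 to 315 CPM in KO pancreata and 133 to 180 CPM in controls, with Lyz2 rising. The part of these markers in the rises of Pcdhac2, Pcdha12, Cdh2, Cdh12 and the delta-protocadherins was not tested.

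**Figure D4:**
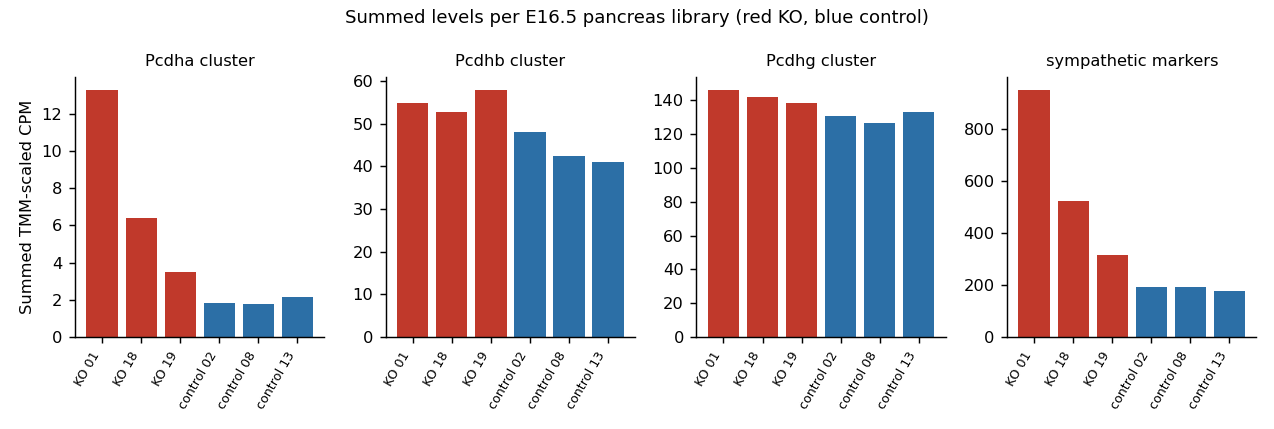
Summed TMM-scaled CPM (y axis, from 0) per E16.5 pancreas library for the Pcdha (14 genes), Pcdhb (21 genes) and Pcdhg (22 genes) clusters and the 13 sympathetic neuron and chromaffin markers, KO libraries (red) left of controls (blue). The Pcdha sum and the marker sum are both highest in KO 01, then KO 18 and KO 19, at 13.3, 6.42 and 3.48 CPM and 950, 522 and 317 CPM, while the Pcdhb and Pcdhg sums vary far less.

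No gene of the Pcdhb or Pcdhg clusters passed in pancreas. Of 20 Pcdhb genes tested, 17 had a fold change above 0 (median 0.38), 7 of them at an unadjusted p under 0.05 (13.0% of all genes were, upwards), and the cluster summed to 55.2 ± 2.64 CPM in KO pancreata and 43.8 ± 3.64 CPM in controls (SD, n = 3 each). Of 22 Pcdhg genes, 20 were above 0 (median 0.27), 2 at an unadjusted p under 0.05, with sums of 142 ± 3.87 CPM in KO pancreata and 130 ± 3.13 CPM in controls. The 3 C-type Pcdhgc genes summed to 62.9 ± 2.21 CPM in KO pancreata and 62.2 ± 3.83 CPM in controls. Pcdhgc3, which made up most of that sum, did not pass (0.05, SE 0.0707, edgeR adjusted p = 0.711).

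Beside the members, 5 lists of cadherin partners, relatives and regulators were tested in KO pancreata, where 3.75% of all genes tested rose and 2.68% fell. As for the members, few or no genes passed in fits that left out a control pancreas. Of 11 catenins and cytoplasmic partners, Ctnna2 (alpha-N-catenin of neurons) and Ctnnd2 (neural delta-catenin) rose and Jup (plakoglobin) fell, with a median log2 fold change of -0.06 over the list. Ctnna2 was at 21.9, 13.0 and 8.06 CPM in KO pancreata 01, 18 and 19 against 3.63, 4.12 and 3.498 CPM in controls (log2 fold change 1.95, SE 0.338, edgeR adjusted p = 0.0250), the same order of KO libraries as the Pcdha genes. Ctnnd2 was at 19.3, 12.1 and 13.2 CPM in KO pancreata against 6.04, 4.77 and 5.86 CPM in controls (1.44, SE 0.199, edgeR adjusted p = 0.0176). Of 6 tested desmosomal genes, the desmosomal cadherin Dsc3 rose (0.83, SE 0.182) and plakophilin Pkp3 fell (-0.56, SE 0.126), and of 14 tested genes of the wider cadherin superfamily the giant cadherins Fat3 (1.08, SE 0.221) and Dchs1 (0.30, SE 0.0697) rose. Of 6 tested hair-bundle partners of Cdh23 and Pcdh15, Ush1c (harmonin) fell (-0.83, SE 0.147), and of 12 regulators of the protocadherin clusters, Ctcf and cohesin among them, none passed. No gene of these 5 lists passed in islets.

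In islets, asked at 60 weeks of age in males, 1 of 74 tested members rose in KO animals and none fell, where 0.113% of all genes tested rose and 0.0422% fell. By edgeR, 3 members were at an unadjusted p under 0.05 upwards and 4 downwards, where 3.47% and 3.71% of all genes were, and DESeq2 called the same 1 member. The member was Cdh23, an atypical cadherin of the hair-cell tip link. It was at 2.81, 2.03, 3.02, 2.59 and 1.57 CPM in KO islets 055, 122, 803, 812 and 845 against 0.713, 0.863, 0.943, 1.31 and 0.851 CPM in control islets 052, 826, 829, 857 and 858, which is 34 to 94 reads against 15 to 35. Every KO value lay above every control value (0.781% of all genes), and the log2 fold change was 1.35 (SE 0.220, edgeR adjusted p = 0.0383). The means were 2.40 ± 0.594 CPM in KO islets and 0.936 ± 0.225 CPM in control islets (SD, n = 5 each).

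The fold change of Cdh23 in islets was 1.25 to 1.50 over all alternatives, with adjusted p-values of 8.01e-05 to 0.133. Leaving out any 1 library other than KO 845 took its adjusted p over 0.05 (edgeR adjusted p = 0.0502 to 0.133), and so did limma-voom (0.0591) and pan-epithelial scaling (0.0941). Cdh23 lies on chromosome 10 from 60302750 to 60696490 on the minus strand of mm10, and Vsir lies within its span on the plus strand, from 60346851 to 60372684. The 2 genes share no exon bases in GENCODE M21, and the doubt about strand stated for Pcdh7 holds here too. Vsir was at 5.53 to 7.86 CPM in KO islets and 5.73 to 7.82 CPM in control islets (log2 fold change 0.05, SE 0.129, edgeR adjusted p = 0.971). In pancreas Cdh23 was at 0.700, 0.660 and 1.37 CPM in KO libraries against 0.938, 1.66 and 2.78 CPM in controls (-0.94, SE 0.458, edgeR adjusted p = 0.244), with overlapping groups.

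**Figure D5:**
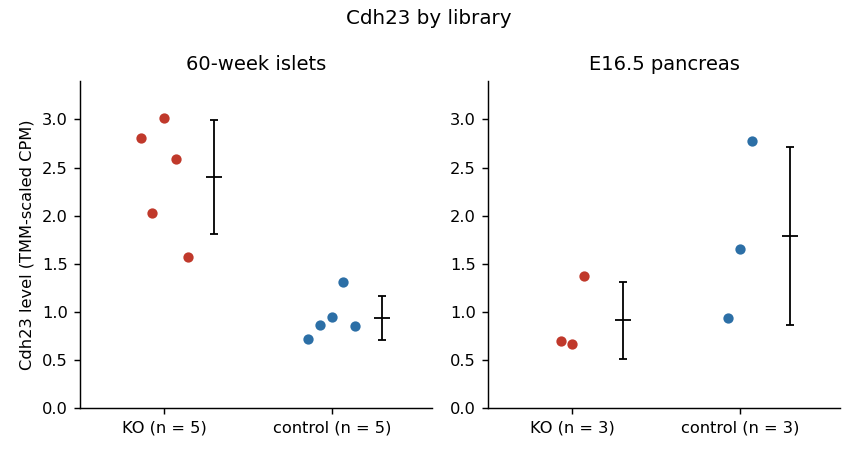
Cdh23 level (TMM-scaled CPM, y axis) per library, KO (red) left of control (blue), in 60-week islets (n = 5 each) and E16.5 pancreas (n = 3 each), with mean ± SD in black. The 5 KO islet values, 1.57 to 3.02 CPM, all lie above the control islet values of 0.713 to 1.31 CPM, and the pancreas groups overlap.

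The members that dominate in islets did not pass. Cdh2 was at 216, 250, 214, 225 and 232 CPM in KO islets against 228, 225, 226, 231 and 224 CPM in control islets (log2 fold change 0.0026, SE 0.0449, edgeR adjusted p = 0.997). Cdh8 was at 108, 116, 119, 127 and 126 CPM in KO islets against 127, 131, 132, 133 and 137 CPM in control islets (-0.14, SE 0.0469, edgeR adjusted p = 0.487). For Cdh8 the highest KO value met the lowest control value. The next lowest p-values belonged to Pcdhb17 (0.26, SE 0.0933, edgeR adjusted p = 0.545), Cdh22 (-0.21, SE 0.0883, edgeR adjusted p = 0.643) and Pcdhb20 (0.24, SE 0.101, edgeR adjusted p = 0.647). The Pcdha cluster summed to 42.5 ± 3.85 CPM in KO islets and 45.0 ± 2.27 CPM in control islets, Pcdhb to 71.5 ± 4.39 CPM in KO islets and 67.2 ± 1.93 CPM in control islets, and Pcdhg to 231 ± 6.70 CPM in KO islets and 231 ± 11.5 CPM in control islets (SD, n = 5 each). Fold changes were above 0 for 31 of 74 members (49.3% of all genes), with a median of -0.05.

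Cdh26, an atypical cadherin too low to be tested in islets, had 4, 2, 5, 3 and 4 reads in KO islets against 0, 0, 0, 0 and 1 read in control islets. It is singled out after its values were seen. The ratio of the summed reads was 18.0, with an exact 95% counting interval of 2.84 to 749 that covers counting error only. In pancreas it had 0.374, 0.240 and 0.422 CPM in KO libraries and 0.285, 0.251 and 0.309 CPM in controls.

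Whether the effect of genotype differed between islets and pancreas was tested as an interaction over all 16 libraries, which covered 86 members. The difference, islets minus pancreas, was above 0 for 2 members at an adjusted p under 0.05 and below 0 for 9, where 3.94% and 3.25% of all genes passed. Cdh23 (2.30, SE 0.489, edgeR adjusted p = 0.0109) and Pcdh12 (0.62, SE 0.153, edgeR adjusted p = 0.0226) had the more positive effect in islets. The 9 with the more positive effect in pancreas were Pcdha12 (-2.77), Pcdhac2 (-2.52), Pcdha11 (-2.06), Pcdh10 (-1.81), Pcdha9 (-1.80), Cdh22 (-1.30), Cdh8 (-0.96), Cdh2 (-0.66) and Pcdh19 (-0.55), with edgeR adjusted p-values of 0.0027 (Cdh8 and Pcdhac2) to 0.0438 (Pcdha9). For Cdh2 the 2 effects were 0.0026 in islets and 0.68 in pancreas, and for Pcdhac2 they were -0.18 in islets and 2.34 in pancreas. Pcdha11 was too low to be tested in pancreas alone, with 18, 6 and 6 reads in KO pancreata against 2, 2 and 3 in controls. Pcdh10 was too low to be tested in islets alone, with 7, 2, 9, 1 and 8 reads in KO islets against 12, 5, 16, 13 and 6 in control islets. Its difference therefore rests in part on few islet reads. Leaving out KO 01 ended the calls of Cdh22, Pcdh12, Pcdh19, Pcdha11 and Pcdha9 (6 of 11 kept), and leaving out control 02 ended those of Cdh22, Pcdh10, Pcdh12, Pcdh19, Pcdha11 and Pcdha9 (5 of 11 kept). Leaving out any other library kept 7 to 11 of the 11, with Cdh22, Pcdha9 and Pcdh19 lost most often and Pcdh10 lost without control 08.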

How the data were processed

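For each tissue the authors deposited a table of unnormalised whole-number counts, with gene lengths in kb. Per the labels' protocols, poly(A) libraries were prepared with Kapa's mRNA HyperPrep chemistry. Build mm10, HTSeq 0.11.1, STAR 2.6.0, Trimmomatic and edgeR are listed in the submitters' processing notes without a role. Annotation and use of strand are not stated in the labels. From the counts, genes were tested in edgeR 4.0.16 by quasi-likelihood F tests (R 4.3.3; filterByExpr, TMM, Benjamini-Hochberg over all genes, threshold 0.05), within each tissue for KO against control (14914 genes in pancreas, 14219 in islets) and over all 16 libraries for the interaction and the contrast of controls (15823 genes). The SE of a fold change is its size over the square root of F. CPM and RPKM were computed with 1 TMM scaling over all libraries. At 14866194 to 32385042 counts per library, counting error is large for members under about 1 CPM, and intervals cover counting error only. The test was checked on simulated counts with the same spread for every gene and with changes placed in well-counted genes only. That check does not cover members with few reads or the spread between these animals.

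The members and gene lists were chosen with earlier results of these data known. Members named with values are those past the threshold in KO against control or in the interaction, the 8 highest per length in each control group, the 6 largest differences in each direction between the controls with at least 1 CPM in either, in islets the 5 with the lowest p, Tff2, Cdh1 and Cdh5, and partner genes past the threshold in KO against control. Clusters are described by sums with examples, and further members are given as fold changes only. Cdh26 was added after its values were seen. Of the 90 members, 74 passed the low-count filter in pancreas and 74 in islets, 64 of them in both and 6 in neither. Replicates of a group always differed by more than counting noise (chi-square per degree of freedom at least 5.09 in pancreata and 6.52 in islets). Whether replicates came from separate litters is not stated, so p-values measure the spread between these animals. Alternatives were RLE and library-total scaling, scaling to pan-epithelial markers, no filter, a stricter filter, DESeq2 1.42.0, limma-voom (limma 3.58.1) with quality weights, a robust fit, a minimum fold of 2 and each library left out. Unshared exon lengths (GENCODE M21) were an addition made with the data in view.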

Additional observations from a re-analysis of the deposited data

Results flagged for a closer look

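Among 49 groups of 5 islet libraries examined for named members, a library stood apart from the others in 2, where chance alone is known to mark a small share of such groups. Pcdh1 was at 64.9 CPM in KO islets 055, where the other 4 KO libraries lay at 53.7 to 56.1 CPM. Cdh7 was at 12.9 CPM in the same library, below the other 4 at 16.3 to 17.4 CPM.

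The effect of genotype differed between islets and pancreas, by the interaction test over all 16 libraries, for 11 members. The difference on the log2 scale, islets minus pancreas, was 2.30 for Cdh23 and 0.62 for Pcdh12. It was -2.77 for Pcdha12, -2.52 for Pcdhac2, -2.06 for Pcdha11 and -1.80 for Pcdha9 in the Pcdha cluster, -1.81 for Pcdh10 and -0.55 for Pcdh19 among the other protocadherins, and -1.30 for Cdh22, -0.96 for Cdh8 and -0.66 for Cdh2 among the classical cadherins.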

How the results depend on the processing

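Among fold changes of named members recomputed under the alternatives, 1145 kept their direction and their side of the threshold, 99 lost the threshold, 8 gained it and 12 changed sign. In pancreas the members that rose numbered 55 of 74 with pan-epithelial scaling (10125 of 14914 genes in all), 3 with a minimum fold of 2 and 0 to 7 with a library left out, and those that fell 0 in each of these (0 to 0). In islets the count that rose was 0 with pan-epithelial scaling and with limma-voom, and 0 to 1 with a library left out. In the interaction, 1 member rose with pan-epithelial scaling, with limma-voom and with a minimum fold of 2, 51 of 86 fell with pan-epithelial scaling (7858 of 15823 genes in all), and with a library left out 1 to 3 rose and 4 to 11 fell. Between the controls, 18 members were lower and 63 higher in islets with pan-epithelial scaling (2770 and 11713 of 15823 genes in all). The signs that changed were those of 3 islet fold changes near 0 and 2 differences between controls. In islets Cdh2 was at -0.073 with pan-epithelial scaling, -0.0013 with limma-voom and -0.034 to 0.026 with a library left out (below 0 without control 858, KO 122 or KO 845). Pcdh12 was at -0.024 with pan-epithelial scaling and -0.0049 to 0.086 with a library left out (below 0 without control 858 or KO 055), and Pcdha9 at -0.16 to 0.050 with a library left out (above 0 without control 857 or KO 055). Pcdhgc3 and Pcdh12 between controls turned to 0.78 and 0.16 with pan-epithelial scaling. The cause was not tested. No paired analysis was possible because animal numbers are not shared between the groups.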
